A study of Mus musculus with 23 samples.

Results

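The glutamate and GABA receptor subunits were 24 of the 8251 genes measured on arrays of mouse nucleus accumbens. They were chosen by gene symbol in the array annotation: Gria, Grin, Grik, Grid or Grm followed by a digit, or symbols that begin with Gabr or Gabbr. The symbol rule itself used no measured value, but it was set with earlier results of these data known. The 24 genes had 31 probe sets, and for each gene the probe set with the highest mean over all 23 arrays was used. By class there were 4 AMPA, 4 NMDA, 3 kainate, 1 delta and 1 metabotropic glutamate receptor gene, 10 GABA-A genes and 1 GABA-B gene.

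Glutamate is the main excitatory transmitter of the brain and GABA the main inhibitory one. AMPA, NMDA and kainate receptors are cation channels built from several subunits, whereas metabotropic glutamate receptors and GABA-B receptors act through G proteins, and GABA-A receptors are chloride channels. Most neurons of the nucleus accumbens, part of the ventral striatum, are GABAergic projection neurons that receive glutamate input from cortex, hippocampus, amygdala and thalamus and dense dopamine input from the midbrain.

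The mice came from short-term selected lines founded on a C57BL/6J x DBA/2J cross, and either line can carry alleles of both strains. HMACT had been bred for a high and LMACT for a low response to an acute dose of methamphetamine (MA), a psychostimulant that releases dopamine. Mice of either line received saline or 2 mg/kg MA, and tissue was taken 1 hour later. Every array measured a 4-way pool of tissue, with 6 HMACT saline, 6 HMACT MA, 6 LMACT saline and 5 LMACT MA pools. Mean age was 114 ± 38.2 days (SD, n = 6) in HMACT saline, 115 ± 35.0 days (SD, n = 6) in HMACT MA, 76.3 ± 25.3 days (SD, n = 6) in LMACT saline and 76.9 ± 21.7 days (SD, n = 5) in LMACT MA. Age was not evenly spread in HMACT, where replicates 1 to 3 were at least 141.5 days old and replicates 4 to 6 at most 88 days. The labels do not say how animals were shared among pools or whether a pool is 1 litter, and the tests therefore measure the spread from pool to pool.

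Striatal markers were present: Penk ranged from 13.5 to 14.6 and Tac1 from 9.28 to 10.3 on the log2 scale, and Drd2 and Pdyn were above the floor on all 23 arrays, whereas the probe set of Rgs9 lay at the floor on every array. On 4 arrays (HMACT saline replicates 3 and 5, HMACT MA replicate 3 and LMACT MA replicate 4) many genes deviated together along an axis that held 62.1% of the residual variance. Their scores on this axis ran from 41.8 to 65.0, against -22.8 to 23.8 on the other 19 arrays. The mean level of 6 microglial genes above the floor was 7.50 to 8.84 on these 4 arrays and 6.41 to 7.39 on the others, with Cx3cr1 and Aif1 at the floor throughout. By group it was 6.48 to 8.84 in HMACT saline, 6.41 to 7.95 in HMACT MA, 6.54 to 6.99 in LMACT saline and 6.64 to 7.55 in LMACT MA. The sign of the axis was set by the microglial genes C1qa and C1qb. Medians on the 4 and the other 19 arrays also differed in other lists, with overlapping ranges. They were 9.89 and 9.35 for striatal projection neuron genes, 9.82 and 9.63 for cortical ones, and 8.73 and 9.03 for general neuron genes. Oligodendrocyte genes gave 8.69 and 8.40 and astrocyte genes 8.60 and 8.48. Endothelial genes gave 5.10 and 4.85, and choroid plexus or ependyma genes 4.53 and 4.38. All 6 oligodendrocyte genes above the floor were lower in HMACT over both injections, 3 of them at an unadjusted p under 0.05, where 12.7% of all genes reached that level, with a median difference of -0.32 and Cnp at the floor. After saline alone 3 of the 6 were higher and 3 lower. Their mean level was 8.32 to 8.86 in HMACT saline, 7.51 to 8.83 in HMACT MA, 8.37 to 9.02 in LMACT saline and 8.33 to 9.28 in LMACT MA. The 3' minus 5' signal of the actin and Gapdh control probes was 1.07 to 2.26 on these 4 and 2.12 to 4.57 on the others. The part of these properties in the results below was not tested, and several single-gene differences that rest on the 4 arrays are given with and without them.

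Promoter sequence is shown for 4 subunit genes that were low on average on those 4 arrays, Gria2, Gabra2, Gabrb1 and Grik2, and for Grik5, which was high on them. Each line gives the 100 bases just upstream of the RefSeq start (GRCm38.p6), 5′ to 3′ on the gene's strand, with CG dinucleotides in capitals. The letters are those of the reference genome, not of the selected lines.
Gria2 (chr3:80802836-80802935, minus strand): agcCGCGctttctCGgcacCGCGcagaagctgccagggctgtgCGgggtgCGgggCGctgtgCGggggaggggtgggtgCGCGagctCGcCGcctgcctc
Gabra2 (chr5:71095850-71095949, minus strand): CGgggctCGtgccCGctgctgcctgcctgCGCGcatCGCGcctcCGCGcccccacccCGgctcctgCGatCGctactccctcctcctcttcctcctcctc
Gabrb1 (chr5:71657821-71657920, plus strand): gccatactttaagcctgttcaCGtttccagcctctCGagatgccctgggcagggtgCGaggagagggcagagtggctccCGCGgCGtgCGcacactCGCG
Grik2 (chr10:49788755-49788854, minus strand): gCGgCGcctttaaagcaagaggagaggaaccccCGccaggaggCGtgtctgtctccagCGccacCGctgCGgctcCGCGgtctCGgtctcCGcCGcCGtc
Grik5 (chr7:25072370-25072469, minus strand): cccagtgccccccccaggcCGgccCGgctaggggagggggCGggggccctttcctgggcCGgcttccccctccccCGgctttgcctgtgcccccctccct
The 250 bases upstream held 19 CG dinucleotides in Gria2, 18 in Gabra2, 18 at the first start of Gabrb1, 20 in Grik2 and 8 in Grik5, against a median of 6 and an upper quartile of 16 over 32851 RefSeq promoter windows. Gabrb1 also has a second listed start, with 6. Gabbr1 and Grin2c, which deviated less on those 4 arrays, held 16 and 15, and windows of subunit genes at the floor on every array held 0 to 29. No window was available for Gria3, also low on those arrays, or for Gabrd, also high. The GC box (GGGCGG on either strand) was found in the Gabra2 and Grik5 windows and not in those of Gria2, Gabrb1 or Grik2; 32.7% of all windows hold it. The cyclic AMP response element TGACGTCA, which is its own reverse complement, occurs in 1.55% of all windows and in none of the 23 windows of the 17 subunit genes that had one. These matches describe letters only.

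Of the 24 subunit genes, 11 were above the floor of 2.3 (log2 signal) on all 23 arrays, 2 on some arrays and 11 on none. Over all 8251 genes the shares were 61.7%, 13.0% and 25.3%. Above the floor throughout were the AMPA genes Gria1, Gria2 and Gria3, the NMDA gene Grin2c, the kainate genes Grik1, Grik2 and Grik5, the GABA-A genes Gabra2, Gabrb1 and Gabrd, and the GABA-B gene Gabbr1. At the floor throughout were Gria4, Grin2a, Grin2b, Grin2d, Grm8, Gabra3, Gabra6, Gabrb2, Gabrg3, Gabrr1 and Gabrr2. Grid1 and Gabrg1 were each above the floor on 4 arrays. A value at the floor says that the probe set gave no signal above it, and does not show that the transcript is missing from the tissue; levels of different probe sets cannot be compared.

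No subunit gene passed an adjusted p of 0.05 in any of the 7 comparisons (limma's moderated test, Benjamini-Hochberg over 8251 genes, two-sided), apart from the settings named below for Gabrb1 and Grid1. The smallest adjusted p was 0.303, for the lower Grik1 level in HMACT. At an unadjusted p under 0.05, the line comparison over both injections held 2 of the 24 genes, Grik1 and Gabrb1, both lower in HMACT. It held 3 after saline (Gabrb1, Gabrg1 and Grik2, all lower in HMACT) and 1 after MA (Grik1, lower in HMACT). The MA comparison over both lines held 1 gene, Grik1, higher after MA. The MA comparison within LMACT held the same gene, and the comparison within HMACT and the line by injection interaction held 0. Over all genes, the shares at this unadjusted level were 12.7% for the line comparison, 15.2% after saline, 4.29% after MA, 1.5% for MA over both lines, 3.33% for MA in LMACT, 1.55% for MA in HMACT and 2.62% for the interaction. The shares called at the adjusted level were 0.194% for the line comparison, 0.0242% for MA over both lines, 0.0121% for MA in HMACT and 0.0% for the other 4 comparisons. The subunit genes' shares were 8.33% for the line comparison, 12.5% after saline, 4.17% after MA, 4.17% for MA over both lines and 4.17% for MA in LMACT, which are counts of 1 to 3 genes, with 11 of the 24 at the floor.

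**Figure D1:**
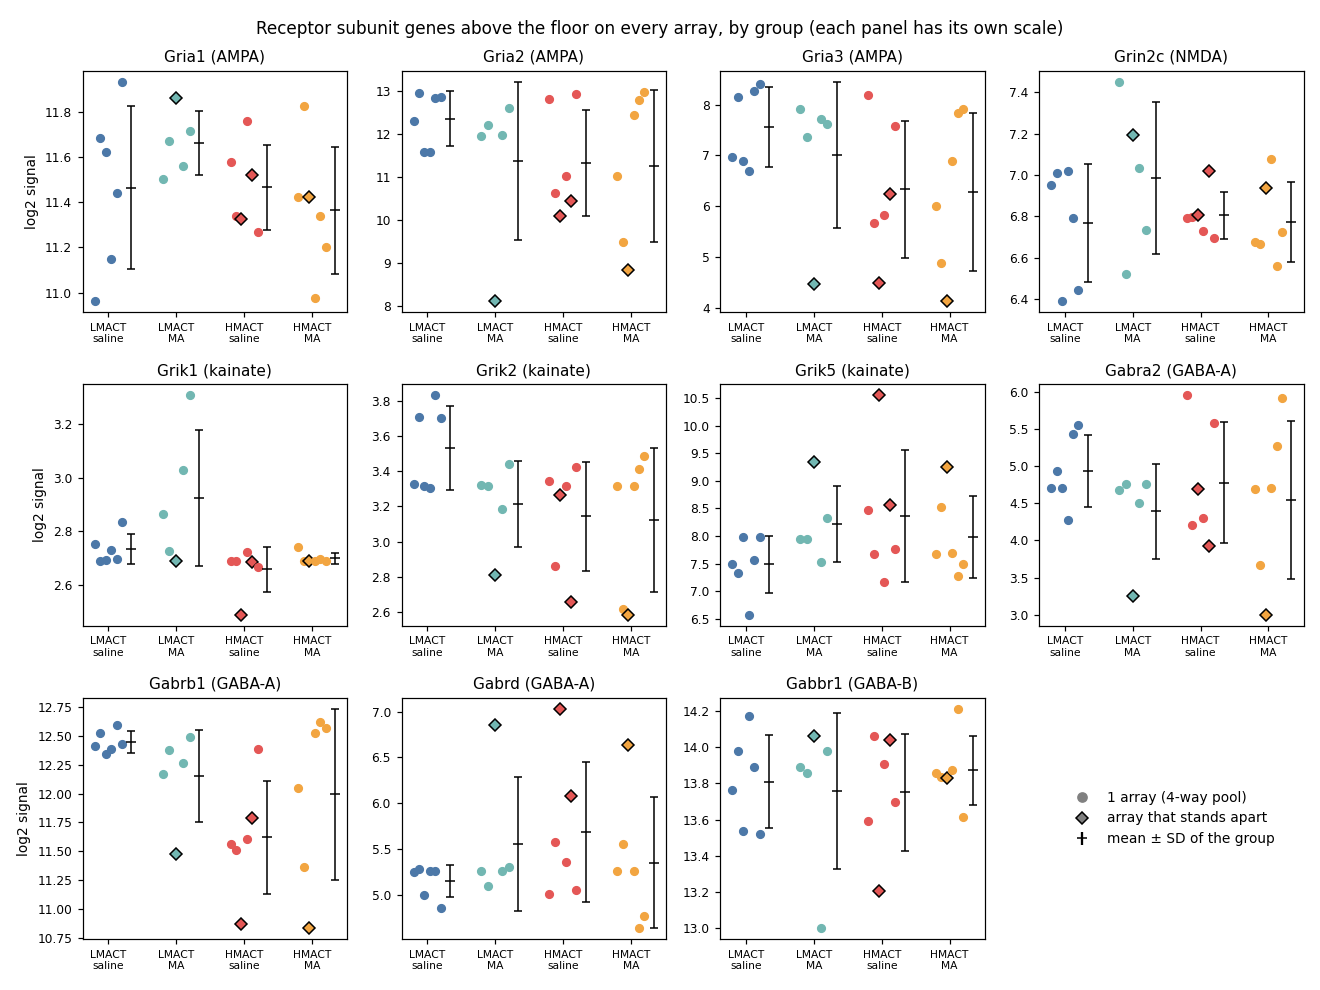
Log2 signal (vertical axis, a separate scale in each panel) of the 11 receptor subunit genes above the floor on every array, by line and injection (horizontal axis). Points are single arrays of 4-way pools, outlined diamonds are the 4 arrays that stand apart, and bars are the mean ± SD of the group. Groups overlap in all panels; Gabrb1 lies between 12.3 and 12.6 in the 6 LMACT saline pools and between 10.9 and 12.4 in the 6 HMACT saline pools.

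AMPA receptors carry most fast excitatory transmission, and their subunits GluA1, GluA2 and GluA3 are encoded by Gria1, Gria2 and Gria3; GluA2 limits calcium entry through the channel. Gria2 ranged from 10.1 through a median of 10.8 to 12.9 in HMACT saline pools and from 11.6 through 12.6 to 13.0 in LMACT saline pools. After MA it ranged from 8.82 through 11.7 to 13.0 in HMACT, and the 5 LMACT pools gave 8.10, 11.95, 11.98, 12.2 and 12.6. The lowest LMACT value belongs to an array that stands apart. The groups overlapped, and the line difference was -0.57 (HMACT minus LMACT, SE 0.595, 95% interval -1.82 to 0.67, adjusted p = 0.704 by limma). The sign of the line difference turned in pools younger than 100 days (0.44) and with the array axis as a covariate (0.46). Axis scores keep group differences and were built partly from this gene, so that covariate can take up part of a line difference. In LMACT the difference between MA and saline was -0.98 (interval -2.78 to 0.82) with all arrays and -0.16 without the 4 arrays. In bulk tissue, fewer cells of a type and less RNA per cell cannot be told apart.

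Gria3 was the AMPA gene with the smallest p in the line comparison. It ranged from 4.48 through 6.04 to 8.18 in HMACT saline pools and from 6.68 through 7.56 to 8.40 in LMACT saline pools. After MA it ranged from 4.13 through 6.45 to 7.91 in HMACT, and the LMACT pools gave 4.47, 7.36, 7.61, 7.72 and 7.92. HMACT pools were lower than the LMACT mean in 8 of 12 cases. The line difference was -0.98 (SE 0.542, interval -2.12 to 0.15, unadjusted p = 0.085, adjusted p = 0.447 by limma). Without the 4 arrays it was -0.85, in pools younger than 100 days it was -0.08, and in the largest chip lot it was -1.49.

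Gria1 varied less. Its group means were 11.47 ± 0.19 (SD, n = 6) in HMACT saline, 11.4 ± 0.28 (SD, n = 6) in HMACT MA, 11.47 ± 0.36 (SD, n = 6) in LMACT saline and 11.7 ± 0.14 (SD, n = 5) in LMACT MA. The mean MA difference was 0.05 (interval -0.18 to 0.27). The line difference was -0.15 (interval -0.38 to 0.08), but a dimmer second probe set of Gria1 gave 0.65 (unadjusted p = 0.020, adjusted p = 0.379 by limma over all probe sets), so the direction rests on the probe set. The other 2 probe sets of Gria2 above the floor kept the sign of the first, with line differences of -1.09 and -0.67.

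NMDA receptors are glutamate-gated channels that also need a depolarised membrane. Among the 4 genes, Grin2c, which encodes the GluN2C subunit, was above the floor. It ranged from 6.70 to 7.02 in HMACT saline, from 6.56 to 7.08 in HMACT MA and from 6.39 to 7.02 in LMACT saline, with 6.52, 6.74, 7.03, 7.20 and 7.45 in LMACT MA. All 4 groups overlapped. Its MA difference was 0.09 (interval -0.12 to 0.31) and its line difference -0.09 (interval -0.30 to 0.13). Grin2a and Grin2b, which encode the main forebrain GluN2 subunits, lay at the floor on all arrays, as did Grin2d.

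Kainate receptors modulate release and excitability, with Grik1 and Grik2 encoding the low-affinity subunits GluK1 and GluK2 and Grik5 the high-affinity subunit GluK5. Grik1 was close to the floor. It ranged from 2.49 through 2.69 to 2.72 in HMACT saline, from 2.69 through 2.69 to 2.74 in HMACT MA and from 2.69 through 2.71 to 2.83 in LMACT saline, and the LMACT MA pools gave 2.69, 2.73, 2.87, 3.03 and 3.31. Most pools thus sat at the same value, with 16 of 23 arrays within 0.05 of 2.69, and the values above 2.74 came from 3 LMACT MA pools (2.87, 3.03 and 3.31), 2 LMACT saline pools (2.75 and 2.83) and HMACT MA replicate 1 (2.741). The line difference was -0.15 (SE 0.053, interval -0.26 to -0.04, unadjusted p = 0.0106, adjusted p = 0.303 by limma), and all 12 HMACT pools lay below the LMACT mean for their injection. After MA the line difference was -0.22 (unadjusted p = 0.0086, adjusted p = 0.757). MA minus saline was 0.12 over both lines (unadjusted p = 0.040, adjusted p = 1.00) and 0.19 in LMACT (unadjusted p = 0.022, adjusted p = 1.00). Without LMACT MA replicate 6, MA minus saline was 0.07 over both lines and 0.09 in LMACT, and the line difference was -0.10 over both injections and -0.13 after MA.

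Grik2 was lower in all 6 HMACT saline pools than the LMACT saline mean. It ranged from 2.66 through 3.29 to 3.42 in HMACT saline and from 3.30 through 3.51 to 3.83 in LMACT saline. The difference was -0.39 (SE 0.178, interval -0.76 to -0.02, unadjusted p = 0.042, adjusted p = 0.323 by limma), and -0.30 without the 4 arrays (unadjusted p = 0.093). After MA the range was 2.59 to 3.49 in HMACT, and the LMACT pools gave 2.81, 3.18, 3.31, 3.32 and 3.44, so that the groups overlapped fully. A second Grik2 probe set, above the floor on only 6 arrays, gave a line difference of 0.006 after saline (interval -0.01 to 0.03).

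Grik5 went the other way after saline, from 7.17 through 8.11 to 10.6 in HMACT and from 6.58 through 7.53 to 7.98 in LMACT. The difference was 0.88 (SE 0.476, interval -0.12 to 1.87, unadjusted p = 0.080, adjusted p = 0.368 by limma). Without the 4 arrays it was 0.28, and without HMACT saline replicate 3 alone it was 0.44. Over both injections the line difference was 0.32 (interval -0.40 to 1.04), and -0.21 with mean age as a covariate. A dimmer second probe set of Grik5, above the floor on all 23 arrays, gave 0.05 after saline (interval -0.19 to 0.28) and 0.09 over both injections. The size of the difference thus rests on the probe set.

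The delta receptor gene Grid1, whose product binds synaptic adhesion proteins rather than acting as a typical glutamate-gated channel, was above the floor on 4 of 6 HMACT saline arrays (2.33, 2.33, 2.37 and 3.61) and on none of the other 17 arrays. It was singled out after its values were seen. The highest value came from an array that stands apart, and the others exceeded the floor by less than 0.1. With all arrays the line difference after saline was 0.28 (interval -0.04 to 0.61, adjusted p = 0.373 by limma). Without the 4 arrays it shrank to 0.08 but passed the test (adjusted p = 0.0014), as did MA minus saline in HMACT (-0.08, adjusted p = 0.0024); the gene has exactly the same value, 2.25, on 18 of the 23 arrays. The metabotropic gene Grm8 lay at the floor on all arrays.

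GABA-A receptors are pentamers of alpha, beta and other subunits. Gabrb1, which encodes the beta-1 subunit, had the smallest p of the set after saline: the LMACT saline pools ranged from 12.3 through 12.4 to 12.6, the HMACT saline pools from 10.9 through 11.6 to 12.4, and 1 HMACT pool lay within the LMACT range. The difference was -0.83, or 1.78-fold lower in HMACT (SE 0.281, interval -1.42 to -0.24, unadjusted p = 0.0082, adjusted p = 0.320 by limma), and all 6 HMACT pools lay below the LMACT mean. After MA the HMACT pools ranged from 10.8 through 12.3 to 12.6, and the LMACT pools gave 11.5, 12.2, 12.3, 12.4 and 12.5. There the line difference was -0.16 (interval -0.78 to 0.45), and the line by injection interaction was 0.67 (interval -0.19 to 1.52, adjusted p = 0.860 by limma). Over both injections it was -0.50 (SE 0.204, interval -0.92 to -0.07, unadjusted p = 0.025, adjusted p = 0.345 by limma). With array weights, which give less weight to noisy arrays, it was -0.41 and passed the test (adjusted p = 0.045), as did the difference after saline (-0.78, adjusted p = 0.048). The share of all genes that passed with these weights is not given here, so the pass shows nothing particular to Gabrb1. Without the 4 arrays the values were -0.39 (adjusted p = 0.247) over both injections and -0.68 (adjusted p = 0.407) after saline.

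Gabrb1 values were also compared by the age of the pools. In HMACT saline, the 3 pools older than 100 days gave 10.88, 11.51 and 11.56 and the 3 younger pools 11.61, 11.79 and 12.38. In HMACT MA, the older pools gave 10.8, 11.4 and 12.05 and the younger pools 12.5, 12.6 and 12.6. Older and younger pools did not overlap in either group, but the share of all genes that separate in this way is not given here. With 3 pools on each side, this separation is therefore only a description of the values. Older minus younger HMACT pools was -0.88 (SE 0.238, unadjusted p = 0.0045, adjusted p = 0.663 by limma in the 12 HMACT arrays, a comparison chosen after seeing the data), and 6.84% of all genes reached that unadjusted level and 0.0% the adjusted one. It was -0.68 without the arrays that stand apart and -1.11 in the largest chip lot, which holds all older HMACT pools and 1 younger pool of each injection. The 2 LMACT pools older than 100 days, at 12.4 and 12.5, lay within the range of the younger LMACT pools of both injections combined. With mean age as a covariate the line difference over both injections was -0.16 (interval -0.60 to 0.28, adjusted p = 1.00 by limma). In pools under 100 days alone it was -0.01 (interval -0.33 to 0.31): -0.53 after saline (unadjusted p = 0.024, adjusted p = 0.745) and 0.50 after MA (unadjusted p = 0.037, adjusted p = 0.866). In those younger pools MA minus saline in HMACT was 0.64 (unadjusted p = 0.015, adjusted p = 0.978). The younger pools include HMACT saline replicate 5 and LMACT MA replicate 4, which stand apart, and values without them are not given here. The older HMACT pools were at least 141.5 days old and the oldest LMACT pool was 127.5 days old, so for these pools line and age cannot be told apart.

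**Figure D2:**
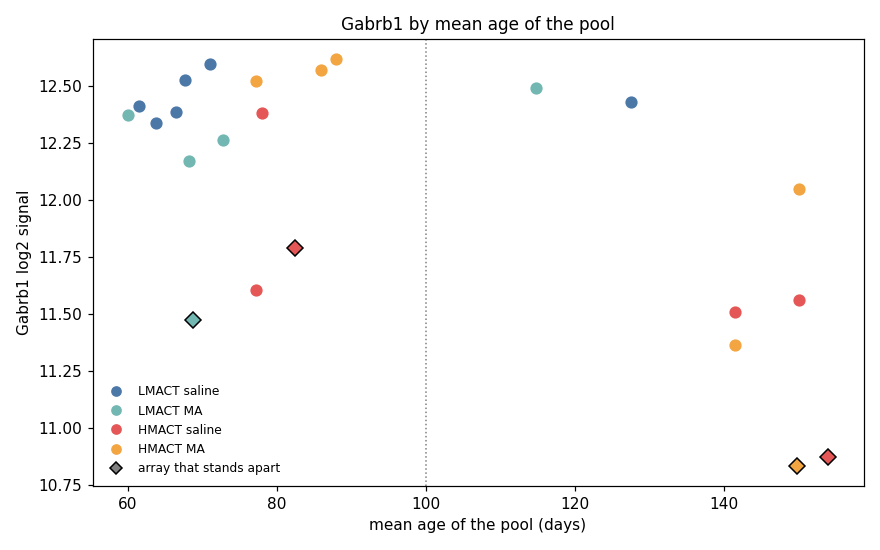
Gabrb1 log2 signal (vertical axis) against the mean age of each pool in days (horizontal axis), with a dotted line at 100 days; colours are the 4 groups, and outlined diamonds are arrays that stand apart. The 6 older HMACT pools lie between 10.8 and 12.05, and the 2 older LMACT pools at 12.4 and 12.5.

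Gabra2 encodes the alpha-2 subunit, which is abundant in striatal neurons. It ranged from 3.93 through 4.50 to 5.96 in HMACT saline, from 3.0 through 4.70 to 5.93 in HMACT MA and from 4.27 through 4.82 to 5.56 in LMACT saline, and the LMACT MA pools gave 3.26, 4.51, 4.68, 4.76 and 4.76. It had the smallest p of the GABA-A genes in the MA comparison, with a difference of -0.39 (SE 0.326, interval -1.07 to 0.29, adjusted p = 1.00 by limma). It was -0.21 without the 4 arrays, and its sign turned with array weights (0.08) and in pools younger than 100 days (0.09). Its line difference was -0.0008 (interval -0.68 to 0.68). Gabrd, the delta subunit of extrasynaptic receptors, was 5.68 ± 0.77 (SD, n = 6) in HMACT saline and 5.15 ± 0.18 (SD, n = 6) in LMACT saline, a difference of 0.53 (interval -0.23 to 1.30) that was 0.10 without the 4 arrays. Exactly the same Gabrd value, 5.26, recurred on 6 arrays.

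Gabrg1, which encodes the gamma-1 subunit, was above the floor on 3 of 6 LMACT saline arrays (2.31, 2.41 and 2.57), on 1 HMACT MA array (2.38) and nowhere else. The line difference after saline was -0.10 (unadjusted p = 0.031, adjusted p = 0.321 by limma), and -0.05 without LMACT saline replicate 2. Gabrg1, Gabra2 and Gabrb1 lie in the same receptor gene cluster on chromosome 5. Gabrg1 and Gabrb1 were both lower in HMACT after saline at the unadjusted level, whereas Gabra2 differed by -0.15 (interval -1.10 to 0.79).

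Gabbr1 encodes the ligand-binding subunit of the GABA-B receptor. Its means were 13.8 ± 0.32 (SD, n = 6) in HMACT saline, 13.9 ± 0.19 (SD, n = 6) in HMACT MA, 13.8 ± 0.26 (SD, n = 6) in LMACT saline and 13.8 ± 0.43 (SD, n = 5) in LMACT MA. The line difference was 0.03 (interval -0.24 to 0.29) and the MA difference 0.03 (interval -0.23 to 0.30). The intervals of Gabbr1, Grin2c and the Gria1 probe set used lay within 0.4 of 0 on the log2 scale in both mean comparisons; that of the other Gria1 probe set for line was 0.12 to 1.19.

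**Figure D3:**
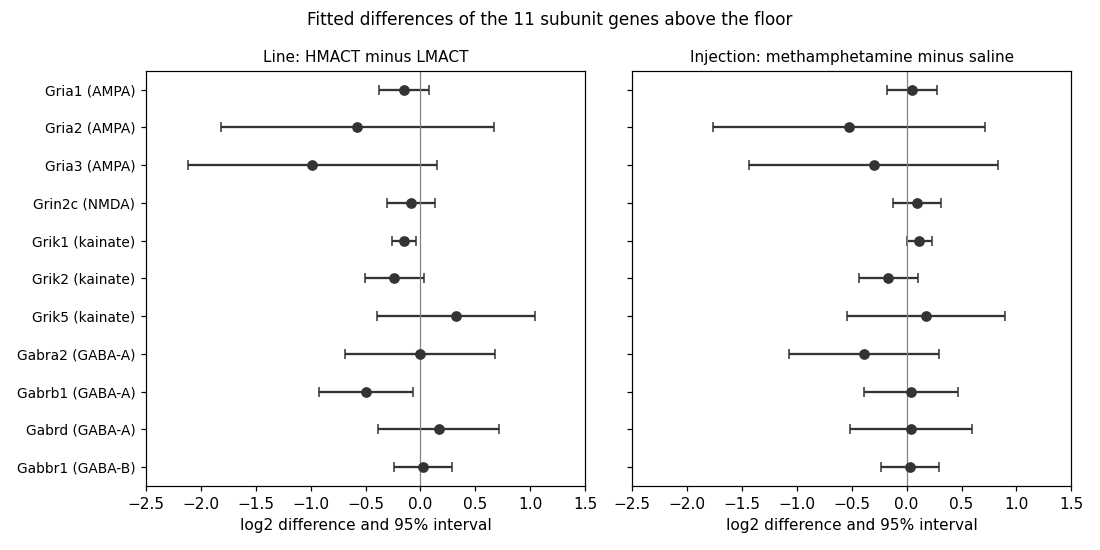
Fitted log2 differences (horizontal axis) with their 95% intervals for the 11 subunit genes above the floor (vertical axis); the left panel is HMACT minus LMACT over both injections, the right panel MA minus saline over both lines. In the left panel the intervals of Grik1 and Gabrb1 do not reach 0, in the right panel that of Grik1; no adjusted p passed 0.05, and the intervals of Gria2 and Gria3 are the widest.

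By class, the 3 AMPA genes above the floor were all lower in HMACT over both injections, with a median difference of -0.57, against a median of 0.01 and 51.6% positive differences over 5091 genes above the floor. For Gria1 the sign is that of the probe set used (0.65 with the other one and 0.25 with their mean), and Gria2 gave 0.44 in pools younger than 100 days and 0.46 with the array axis as a covariate. After saline the AMPA median was -1.03 with 1 of 3 positive. The kainate median was -0.15 with 1 of 3 positive, and the GABA-A median -0.0008 with 1 of 3 positive. Of the 11 subunit genes, 8 were lower in HMACT over both injections. For MA minus saline the medians were -0.30 for AMPA, 0.12 for kainate and 0.04 for GABA-A, against -0.0036 over all genes above the floor, and 7 of 11 subunit genes and 48.2% of all genes above the floor had a positive difference. The sign of this difference turned with array weights in Gria2, Gria3, Gabra2, Gabrd and Grin2c, and in younger pools or with 1 array left out in Gria1 and Gabbr1. It also turned with 1 array left out in Gabrb1 and in the largest chip lot in Grik5. For the line by injection interaction they were 0.49, -0.15 and 0.31, against -0.04. The AMPA median after saline turned to 0.27 with the array axis as a covariate, whose scores keep group differences.

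The subunit genes differed in how they followed the arrays that stand apart. Compared with the mean of the other arrays of the same group, Gria2 deviated by between -4.09 and -1.40 on the log2 scale on the 4 arrays, with a mean of -2.54; 1.59% of genes above the floor deviated more in either direction. Gria3 had a mean deviation of -2.17, Gabra2 of -1.17, Gabrb1 of -0.78 and Grik2 of -0.42. Of the rest, Grik5 (1.63) and Gabrd (1.45) were high on all 4 arrays. Gabbr1 (-0.01), Gria1 (0.05) and Grin2c (0.19) stayed near 0 on average, where the median absolute deviation over 5091 genes was 0.49. The axis was drawn from all genes, these included, so the values are descriptions without a test.

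**Figure D4:**
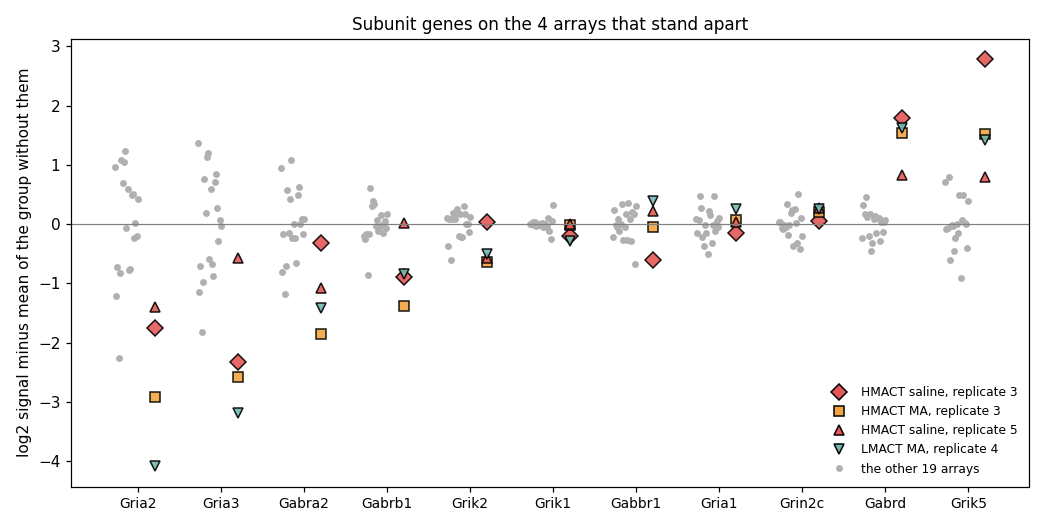
Log2 signal of 11 subunit genes (horizontal axis) on each array minus the mean of the arrays of its group that do not stand apart (vertical axis). Outlined symbols are the 4 arrays that stand apart and grey points the other 19. Gria2 lies at -1.40 or below on all 4, while Gabrd and Grik5 lie above 0 and Gria1 and Grin2c near 0.

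Part of these genes also varied together among the other 19 arrays. Of 55 pairs of the 11 subunit genes, 15 were correlated at an adjusted p under 0.05, 10 of them positively (permutation test, 100000 resamples of residuals from group means, Benjamini-Hochberg over 55 pairs). By Pearson r they were all the pairs among 6 genes, Gria2, Gria3, Gabra2, Gabrb1, Grik2 and Gabrd, and Grik5 and the other 4 genes were in none. By rank correlation (rho, same test), Gabrd with Gabrb1 and with Grik2 did not pass (each adjusted p = 0.156). Gria1 with Grin2c did (rho = -0.58, adjusted p = 0.042). Without the 2 arrays farthest from the first gene's median, r was 0.43 for Gabra2 and Gabrb1 and -0.42 for Gabrb1 and Gabrd. The smallest Pearson r of the 15 pairs was 0.60 in size, and 9.29% of all pairs of 5071 genes above the floor that varied on these arrays reached it, against 27.3% of the 55 pairs. That limit was set by the 15 pairs themselves, which come from 6 genes and are not independent, so the contrast is a description and not a test. Gria2 and Gria3 had r = 0.94 and rho = 0.92 (each permutation p = 1e-05, the smallest these resamples can give; r = 0.91 without the 2 arrays farthest from the Gria2 median). Gria3 and Gabra2 had r = 0.94 and rho = 0.93 (permutation p = 1e-05; r = 0.91 without 2 arrays). Gria2 and Gabrb1 had r = 0.85 and rho = 0.79 (permutation p = 2e-05 and 1.7e-04; r = 0.72 without 2 arrays). Gabrd was negatively correlated with Gabra2 (r = -0.81, rho = -0.74, permutation p = 1e-05 and 5.3e-04; r = -0.71 without 2 arrays). The points share each array's RNA and hybridisation, and 90.4% of the remaining variance of Gria2, 75.2% of Gria3 and 74.5% of Gabra2 still lay on the array axis on these 19 arrays, against 2.93% of Grik5 and a median of 15.3% over genes.

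Genes that serve these receptors were described from lists. Among 16 measured scaffold and auxiliary genes of glutamate receptors, 0 passed the adjusted test (limma) in the line or the MA comparison. Of these, 14 were above the floor on all arrays, and the medians below are over those 14. At the unadjusted level, which 12.7% of all genes reached for line and 1.5% for MA, 2 were higher and 1 lower in HMACT over both injections, and 1 was lower after MA over both lines, with median differences of 0.06 and -0.04. After saline 4 were higher and 1 lower in HMACT, with a median of 0.16, where 15.2% of all genes reached that level. Nsf, an ATPase that binds GluA2, was higher in HMACT by 0.37 (SE 0.084, adjusted p = 0.077 by limma), and its MA difference was -0.22 (unadjusted p = 0.017, adjusted p = 1.00). Among 9 GABA receptor scaffold and auxiliary genes, 1 was higher and 1 lower in HMACT at the unadjusted level, with a median of 0.17; 0 were at that level for MA over both lines, and 1 higher and 1 lower for MA in LMACT. Of 8 measured genes of glutamate synthesis and transport, 6 of them above the floor on all arrays, 1 was higher in HMACT (Slc1a1, a neuronal glutamate transporter, 0.33, adjusted p = 0.365 by limma). Of 5 measured genes of GABA synthesis and transport, 4 of them above the floor on all arrays, 1 was lower (Gad1, which makes GABA from glutamate, -0.27, adjusted p = 0.385 by limma). In these last 2 lists 0 genes were at the unadjusted level for MA over both lines or within either line.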

How the data were processed

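RNA of 23 tissue pools was measured on 1-colour expression arrays. The deposited values are taken to be log2 signal, since they run from 2.23 to 16.4; array medians lie between 2.51 and 2.63, and sorted values differ from their mean over arrays by 0.024 on average, so the authors' table appears normalized between arrays. The submitters' processing notes name R 2.7.1 and give no role for it. How background, normalization and probe set summary were handled is not given in the sources used here. The lowest value makes up 33.0% of all values, and values under 2.3 were taken as the floor. The platform annotation gave 1 gene for 10833 of 12488 probe sets, several for 396 and none for 1193, apart from 66 control sets; 10817 were matched to RefSeq (GRCm38.p6), which supplied current symbols and promoter windows. The number of arrays and the signal over the floor limit the precision.

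Means of the 4 groups were fitted with limma 3.58.1 in R 4.3.3 (lmFit, contrasts.fit, eBayes) over all arrays with no covariate, and p-values were adjusted over 8251 genes. Correlations and plots used Python 3.11.15 with numpy 2.4.6 and matplotlib 3.10.9. The fit was tested on simulated data. The members and lists were chosen with earlier results of these data known. Members described singly were those at an unadjusted p under 0.05 in any comparison and those with the smallest p of their class in either mean comparison; Gria1, Gabrd, Grik5 and Grid1 were added after their values were seen. The array axis is the leading component of what remains after subtracting each group's mean, taken over 5308 genes. An array's score is its projection on that component after centring each gene over all arrays. Scores therefore keep differences between groups, and as a covariate the axis can take up part of a line difference. No pair of arrays held the same values. Alternatives covered normalization, filters, the probe set, array weights, eBayes options, chip lot (a lot with 1 array was counted with another), age, replicate blocks, the array axis, and leaving out each array or the 4 that stand apart.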

Additional observations from a re-analysis of the deposited data

Results flagged for a closer look

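In 48 sets of 1 gene and group, each of 5 or 6 arrays, the highest or lowest array stood far from the others in 10, where chance gives about 1 in 20. Sets that share an array are not independent, and Grid1, Gabrg1 and Grik1 sat near the floor with nearly equal values. The count is therefore a description and not a test. In LMACT MA replicate 4, an array that stands apart, Gria2 was 8.10 against 11.95 to 12.6 on the others of its group, Gria3 was 4.47 against 7.36 to 7.92, Gabra2 was 3.26 against 4.51 to 4.76, and Gabrd was 6.85 against 5.10 to 5.30. In HMACT saline replicate 3, which also stands apart, Grid1 was 3.61 against 2.25 to 2.37 and Grik1 was 2.49 against 2.67 to 2.72. In HMACT saline replicate 5, Grin2c was 7.02 against 6.70 to 6.81. Gabbr1 was 13.0 in LMACT MA replicate 5 against 13.9 to 14.1; that array also had the highest 3' minus 5' control signal, 4.57, whose part was not tested. In HMACT MA, Gabrg1 was 2.38 in replicate 5 against 2.24 to 2.25, and Grik1 was 2.74 in replicate 1 against 2.69 to 2.698.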

How the results depend on the processing

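Of 31 differences of single subunit genes, 14 kept their sign under every alternative run; the cause of the changes below was not tested. The adjusted count of 0 subunit genes became 1 with array weights in the line comparison over both injections and after saline (Gabrb1 in both), and 1 without the 4 arrays that stand apart in the line comparison over both injections, the line comparison after saline, MA over both lines and MA in HMACT (Grid1 in all 4). At the unadjusted level of 0.05, weighting arrays put 2 genes past the threshold for MA in HMACT, 3 for MA in LMACT, 4 for the line comparison, 5 after saline, 2 after MA and 2 for the interaction. Shares over all genes under these alternatives are not given here, at either level. The counts above and below therefore show how far the numbers move, and nothing particular to subunit genes. Median centring gave 2 for MA in LMACT, 1 for the line comparison, 1 after saline, 4 after MA and 1 for the interaction. Pools under 100 days gave 2 for MA in HMACT, 0 for MA in LMACT, 1 for the line comparison, 2 after MA and 4 for the interaction. Without the 4 arrays the counts were 2 for MA over both lines, 1 for MA in HMACT and 2 for the interaction. Quantile normalization, and leaving out the 40% of genes with the lowest mean, each gave 0 for MA over both lines. Mean age as a covariate gave 0 after saline and 2 after MA, the array axis 2 after MA, and chip lot 2 for MA in LMACT. Fits of only the groups compared gave 0 for MA in LMACT and 0 for the line comparison after MA. Leaving out 1 array at a time gave 0 to 1 for MA over both lines, 0 to 1 for MA in HMACT, 0 to 2 for MA in LMACT, 2 to 4 for the line comparison, 1 to 4 after saline, 1 to 2 after MA and 0 to 1 for the interaction.

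Same-numbered pools of a line correlated between -0.62 and 0.88 in their deviations from group means, over 0.1 in 8 of 11 pairs; 3 of the 11 pairs have equal mean ages and 10 the same chip lot. As not every pair passed 0.1 and the labels state no pairing, the numbers were not used as pairs. Mean ages of LMACT replicate 2 were close (67.75 days for saline and 68.25 for MA), and those of replicate 6 were not (127.5 and 114.75). A shared block remains possible, and the main fits ignore it. With the replicate block within line, 2 genes were at the unadjusted level for MA in LMACT, and the line difference of Gabra2 was 0.0025.

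Among class medians, that of AMPA genes after saline was 0.27 with the array axis, and in the largest chip lot it was -1.69 after MA. The kainate median in that lot was -0.10 for MA over both lines and -0.22 for MA in HMACT, and with the mean of all probe sets -0.051 for the line comparison after MA. The GABA-A median was 0.51 with array weights and 0.64 in pools under 100 days for MA in HMACT, 0.50 in those pools for the line comparison after MA, and for the interaction 1.02 in those pools and -0.24 in the largest lot.

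For MA over both lines, the sign turned with array weights in Gria2 (0.32), Gria3 (0.27), Gabra2 (0.076), Gabrd (-0.21) and Grin2c (-0.047). It turned in pools under 100 days in Gria1 (-0.034), Gria2 (0.039), Gria3 (0.23), Gabra2 (0.093), Gabrd (-0.10) and Gabbr1 (-0.074). It turned without the 4 arrays in Gabrd (-0.038) and Gabbr1 (-0.033), with the array axis in Gabrd (-0.042), and in the largest lot in Grik5 (-0.10). Gria1 gave -0.061 with the mean of its probe sets and -0.17 with the other one. Leaving out 1 array gave -0.0027 to 0.095 in Gria1, -0.49 to 0.016 in Gria3, -0.035 to 0.16 in Gabrb1, -0.13 to 0.17 in Gabrd and -0.021 to 0.13 in Gabbr1.

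For the line comparison, the sign turned in pools under 100 days in Gria2 (0.44), Gabra2 (0.40), Gabrd (-0.22) and Grik5 (-0.13), with the array axis in Gria2 (0.46), Gabra2 (0.49), Gabrd (-0.32) and Grik5 (-0.17), and with mean age in Gabra2 (0.086), Gabrd (-0.059) and Grik5 (-0.21). It turned without the 4 arrays in Gabra2 (0.13) and Gabrd (-0.018), with quantile normalization in Gabra2 (0.074) and Gabbr1 (-0.030), with median centring in Gabra2 (0.047) and Gabrg1 (0.0072), with array weights in Grik5 (-0.15) and in the largest lot in Grin2c (0.058). Gria1 gave 0.25 with the mean of its probe sets and 0.65 with the other one. Leaving out 1 array gave -0.14 to 0.15 in Gabra2 and -0.067 to 0.082 in Gabbr1.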
